A study of Mus musculus with 30 samples.

Results

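The levels of 7 mouse genes of cholesterol synthesis were compared through 2 colon carcinoma models, CT-26 and Colon 26. The set was given by name and holds 7 of the 53431 genes counted. It has 5 enzymes (Hmgcs1, Idi1, Fdft1, Sqle and Lss) and 2 regulators (Srebf2 and Insig1). It was named for synthesis and uptake, but it holds no receptor that takes up cholesterol. All 7 passed the filter on low counts in every comparison.

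RNA-seq had been run on 30 libraries in 8 groups. There were 3 cultures of each cell line and 4 tumors of each model at nominal sizes of 100, 400 and 800 mm3, with measured volumes from 102.9 to 963.18 mm3. Cells had been implanted in the right flank, and all hosts were female BALB/c mice. The labels name no antibody for any sample, so the tumors were taken as untreated, although the treatment text describes dosing with antibodies to CTLA-4, PD-1 and PD-L1. A tumor library is RNA of whole tissue, with host cells beside the implanted line, and each model is 1 cell line. Library totals ran from 21384697 to 39722554 estimated counts. The Colon 26 cultures held 36042918 to 39722554 and the CT-26 cultures 21384697 to 27856353, so depth and cell line cannot be told apart in culture.

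Markers described what the groups held. The leukocyte list (Ptprc, Cd53 and Laptm5) summed to 4.07 to 4.91 CPM (counts scaled to library size) in CT-26 cultures, 0.113 to 0.206 CPM in Colon 26 cultures and 141 to 511 CPM over the tumors. Of the 6 colon epithelium markers, Epcam was at 0 CPM in all 6 cultures and at a mean of at most 0.630 CPM in any tumor group, and Vil1 stayed at a mean of at most 0.160 CPM. Cdh1 held at most 2 counts in any culture, and its mean reached 2.91 CPM in tumors. The keratins separated the models. Krt18 was at 15.7 ± 0.473 CPM (SD, n = 3) in CT-26 cultures and held 0 to 3 counts in Colon 26 cultures, and Krt8 had means of 0.416 and 0.0877 CPM. Krt20 was at 24.7 ± 1.05 CPM (SD, n = 3) in CT-26 cultures and 5.68 ± 0.225 CPM (n = 3) in Colon 26 cultures. The 6 markers summed to 113 to 251 CPM over the CT-26 tumors and 5.42 to 33.0 CPM over the Colon 26 tumors.

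Cells make cholesterol from acetyl units through mevalonate, isoprenoid building blocks, squalene and lanosterol. Hmgcs1 makes the precursor of mevalonate, Idi1 interconverts the isoprenoid building blocks, Fdft1 joins farnesyl units into squalene, Sqle oxidizes squalene, and Lss closes it into lanosterol. Srebf2 encodes SREBP2, the transcription factor that turns on these enzymes when sterols are low, and Insig1 encodes a membrane protein of the endoplasmic reticulum that holds SREBP2 back when sterols are high. Insig1 is itself a target of the SREBP factors. Proliferating cells need cholesterol for new membranes.

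The promoters are shown because the 7 genes moved together between tumors, as described further on, and because SREBP2 acts at promoters through sterol elements with help from NF-Y and Sp1. RefSeq promoter windows (build GRCm38.p6) were matched for 5 of the 7 genes. The sequences below read 5′ to 3′ on the plus strand, which is the coding strand of all 5, and each lies within the 250 bases before the RefSeq start and stops before the gene begins in RefSeq or GENCODE, whichever start comes first. Capitals mark TCACNCCA (a sterol element core), CCAAT (bound by NF-Y) and GGGCGG (bound by Sp1), each searched on both strands. The stretches are Hmgcs1 at chr13:119690101-119690350, Idi1 at chr13:8885356-8885500, Lss at chr10:76531355-76531587, Srebf2 at chr15:82147019-82147180 and Insig1 at chr5:28071162-28071362.
Hmgcs1: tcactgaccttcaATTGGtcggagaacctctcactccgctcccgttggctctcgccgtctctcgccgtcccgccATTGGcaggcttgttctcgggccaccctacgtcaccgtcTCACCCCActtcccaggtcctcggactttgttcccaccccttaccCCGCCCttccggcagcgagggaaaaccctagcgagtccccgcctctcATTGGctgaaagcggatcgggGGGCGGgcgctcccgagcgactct
Idi1: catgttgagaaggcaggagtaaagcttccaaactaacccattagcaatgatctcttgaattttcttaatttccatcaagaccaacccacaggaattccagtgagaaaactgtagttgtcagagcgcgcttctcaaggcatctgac
Lss: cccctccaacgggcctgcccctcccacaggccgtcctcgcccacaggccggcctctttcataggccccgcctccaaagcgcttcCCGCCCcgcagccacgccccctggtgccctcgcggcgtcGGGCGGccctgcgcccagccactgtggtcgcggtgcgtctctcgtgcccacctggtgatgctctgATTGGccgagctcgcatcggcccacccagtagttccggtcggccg
Srebf2: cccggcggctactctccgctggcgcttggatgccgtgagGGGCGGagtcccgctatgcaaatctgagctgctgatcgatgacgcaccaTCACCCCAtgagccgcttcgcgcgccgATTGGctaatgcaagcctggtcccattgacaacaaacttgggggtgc
Insig1: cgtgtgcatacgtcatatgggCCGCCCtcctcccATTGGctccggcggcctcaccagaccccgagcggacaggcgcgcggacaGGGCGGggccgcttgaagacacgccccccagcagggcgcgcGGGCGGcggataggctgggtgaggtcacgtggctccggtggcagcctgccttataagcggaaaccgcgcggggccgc

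TCACNCCA matched once in the 250 bases before Hmgcs1 and once before Srebf2, and it occurred in 3.67% of the 32851 promoter windows. No match of these letters was found before Idi1, Lss or Insig1. CCAAT matched 3 times before Hmgcs1, 2 times before Idi1 and once each before Lss, Srebf2 and Insig1, against 33.8% of all windows with a match. GGGCGG matched 2 times before Hmgcs1 and Lss, once before Idi1, 4 times before Srebf2 and 3 times before Insig1, against 32.7% of windows. The matches in Idi1 and 3 of those in Srebf2 lay outside the stretches printed. A match of letters is a description of the sequence and not a binding site.

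In the annotation of GRCm38, Hmgcs1 lies on chromosome 13 from 119690379 to 119708260 and Idi1 on chromosome 13 from 8885501 to 8892451. Lss lies on chromosome 10 from 76531588 to 76557138, and Insig1 lies on chromosome 5 from 28071363 to 28078662. Sqle lies on chromosome 15 from 59315077 to 59331192 and Srebf2 on the same chromosome from 82147181 to 82205379. All 6 are on the plus strand. Fdft1 lies on the minus strand of chromosome 14 from 63145150 to 63179578, and 18.3% of its exonic bases are shared with exons of Ctsb, a lysosomal protease gene on the other strand. Whether the counting used strand is not given in the sources used here, so Fdft1 reads cannot be fully separated from Ctsb reads. The opposite-strand partners of Hmgcs1, Idi1 and Lss (Gm48342, Gm48574 and 4930483K19Rik) held at most 12 counts in any library.

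On the FPKM scale (fragments scaled to gene length and depth), the 7 genes kept similar ranks through most groups. In CT-26 cultures Sqle was highest at 55.7 ± 0.804 FPKM (SD, n = 3), then Srebf2 at 41.8 ± 0.813 FPKM and Insig1 at 41.7 ± 1.30 FPKM, which did not differ beyond their spread. Hmgcs1 at 22.9 ± 0.636 FPKM, Fdft1 at 15.9 ± 0.501 FPKM, Idi1 at 13.0 ± 0.600 FPKM and Lss at 9.67 ± 0.432 FPKM followed. In Colon 26 cultures the order was different at the top and the bottom. Insig1 led there at 54.4 ± 0.287 FPKM, ahead of Sqle at 42.1 ± 0.194 FPKM, and Idi1 was last at 8.29 ± 0.198 FPKM (each n = 3). In all 3 Colon 26 tumor groups Insig1 was highest (means of 54.6 to 64.2 FPKM) and Lss lowest (14.0 to 15.2 FPKM), and in all 3 CT-26 tumor groups Lss was lowest (7.81 to 10.2 FPKM). Hmgcs1 had rank 3 in every CT-26 tumor group and rank 4 in every Colon 26 group.

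**Figure D1:**
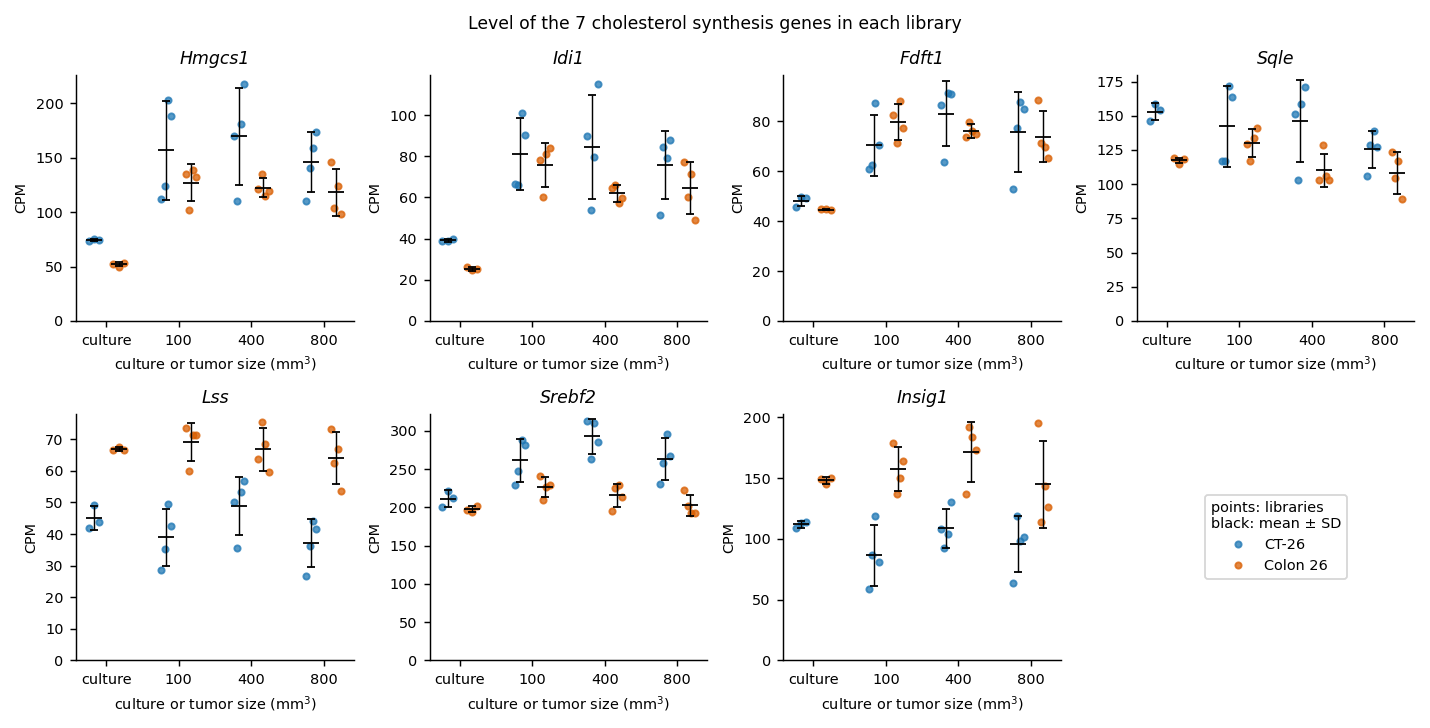
CPM (linear axis from 0) of each of the 7 genes in every library, by culture or nominal tumor size in mm3; points are libraries, blue CT-26 and orange Colon 26, and black marks give the mean ± SD (n = 3 cultures or 4 tumors). Hmgcs1, Idi1 and Fdft1 sat lower in the cultures than in the tumors of both models, while Lss was higher in Colon 26 than in CT-26 at each stage.

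The first comparison asked how tumors of 100 mm3 differed from cultured cells of the same line, in each model. The labels do not say whether the implanted cells came from these cultures or from the same stock. In CT-26, Hmgcs1 and Idi1 were about 2-fold higher in tumors and Fdft1 and Srebf2 rose less. In Colon 26 the same 4 genes were higher, and Idi1 showed the greatest difference, at 3.16-fold. Sqle and Lss, the enzymes after squalene, and Insig1 had log2 fold changes between -0.38 and 0.23 in both models.

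Hmgcs1 was at 73.8, 75.7 and 74.7 CPM in the CT-26 cultures and at 112, 124, 203 and 188 CPM in the CT-26 tumors of 100 mm3. In Colon 26 it was at 52.7, 50.02 and 53.6 CPM in culture and at 135, 102, 139 and 132 CPM in tumors. Every tumor was above every culture, and 2 of the CT-26 tumors lay well above the rest. The log2 fold change was 1.06 (SE 0.21, adjusted p = 0.00193 by edgeR's quasi-likelihood test) in CT-26 and 1.37 (SE 0.10, adjusted p = 1.97e-06) in Colon 26.

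Idi1 was at 38.9, 38.8 and 40.0 CPM in CT-26 cultures and 66.7, 66.2, 101 and 90.2 CPM in the tumors. In Colon 26 its cultures gave 26.2, 24.5 and 25.3 CPM and its tumors 78.4, 60.2, 81.3 and 83.8 CPM. The groups did not overlap, and the Colon 26 cultures were the lowest of all 30 libraries for this gene. The log2 fold change was 1.04 (SE 0.16, adjusted p = 0.000461) in CT-26 and 1.66 (SE 0.11, adjusted p = 1.09e-06) in Colon 26.

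Fdft1 was at 45.8, 49.5 and 49.2 CPM in CT-26 cultures against 61.0, 62.4, 87.4 and 70.3 CPM in tumors, and at 44.7, 44.7 and 44.4 CPM in Colon 26 cultures against 82.3, 71.3, 87.9 and 77.3 CPM in tumors. Its groups did not overlap in either model. The log2 fold change was 0.54 (SE 0.12, adjusted p = 0.00459) in CT-26 and 0.92 (SE 0.06, adjusted p = 1.51e-06) in Colon 26, below the minimum of 1 in both. Ctsb, which shares exonic bases with it, moved the same way, from 1051 ± 59.7 CPM (SD, n = 3) to 1390 ± 324 CPM (n = 4) in CT-26 and from 727 ± 10.2 CPM to 1366 ± 70.6 CPM in Colon 26. Its part in the Fdft1 values was not tested.

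Srebf2 was at 200, 221 and 213 CPM in CT-26 cultures and 229, 247, 289 and 281 CPM in tumors, with a log2 fold change of 0.30 (SE 0.09, adjusted p = 0.0142). In Colon 26 it went from 196, 194 and 202 CPM to 241, 209, 226 and 229 CPM, a log2 fold change of 0.28 (SE 0.04, adjusted p = 0.000311). In both models the transcription factor's own gene had a smaller log2 fold change than Hmgcs1, Idi1 and Fdft1. Its value was larger than those of Sqle, Lss and Insig1 in both.

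Sqle did not separate the groups in CT-26, where the cultures gave 146, 159 and 154 CPM and the tumors 117, 117, 172 and 164 CPM (log2 fold change -0.11, SE 0.15, adjusted p = 0.506). In Colon 26 the cultures gave 119, 115 and 118 CPM and the tumors 129, 117, 134 and 141 CPM (0.23, SE 0.06, adjusted p = 0.00635). Lss was at 42.0, 49.3 and 43.8 CPM in CT-26 cultures and 28.6, 35.1, 49.5 and 42.4 CPM in tumors (-0.22, SE 0.17, adjusted p = 0.277). The Colon 26 cultures held 66.7, 67.5 and 66.5 CPM of Lss and the tumors 73.5, 60.1, 71.2 and 71.4 CPM (0.13, SE 0.06, adjusted p = 0.0977). The culture and tumor ranges of both enzymes overlapped in both models.

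Insig1 was at 109, 113 and 114 CPM in CT-26 cultures and at 58.9, 87.0, 119 and 80.8 CPM in tumors, of which 1 tumor was above the cultures and 3 were below (log2 fold change -0.38, SE 0.20, adjusted p = 0.12). In Colon 26 it was at 149, 145 and 150 CPM in culture and 179, 137, 150 and 164 CPM in tumors (0.17, SE 0.08, adjusted p = 0.0699). Without 1 library of the comparison, the adjusted p in Colon 26 reached 0.214 for Lss and 0.183 for Insig1.

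Genes were called when the adjusted p did not exceed 0.1 and the change was 2-fold or more (1 on the log2 scale). By this rule 2 of the 7 genes (Hmgcs1 and Idi1) were called higher in CT-26 tumors, against 22.2% of all genes tested. The same 2 were called higher in Colon 26 tumors, against 20.8% of genes. By adjusted p alone 4 of 7 were higher in CT-26, against 40.8% of genes, and 7 of 7 in Colon 26, against 42.6%. With all 30 libraries in 1 fit, 4 of 7 passed in Colon 26, and Sqle (adjusted p = 0.174), Insig1 (0.46) and Lss (0.511) did not. Groups did not overlap for 4 of 7 genes in each model, against 71.6% of genes in CT-26 and 75.1% in Colon 26. The median log2 fold change of the 7 genes was 0.30 in CT-26 and 0.28 in Colon 26, beside 0.06 and 0.05 over all genes tested. The share of the 7 called by both criteria was thus near that of all genes.

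The CT-26 calls were close to the fold minimum. Without CT-26 tumor replicate 3 the log2 fold changes were 0.92 for Hmgcs1 and 0.92 for Idi1, without tumor replicate 4 they were 0.95 and 0.97, and the number called fell to 0 in both cases. Tumors also held leukocyte, endothelial and fibroblast RNA, and in CT-26 the 3 cycling markers summed to 1047 to 1294 CPM in tumors of 100 mm3 against 354 to 391 CPM in culture, while in Colon 26 they summed to 850 to 939 CPM against 908 to 967 CPM. Their part in the result was not tested. In bulk samples, fewer cells of a type and less RNA per cell cannot be told apart.

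Whether the tumor-to-culture difference itself differed between models was tested as an interaction. The difference was larger in Colon 26 for Idi1, by 0.58 on the log2 scale (SE 0.20, adjusted p = 0.0336), and for Fdft1, by 0.33 (SE 0.15, adjusted p = 0.0876). Without 1 of the 14 libraries the adjusted p of Idi1 stayed below the threshold, and that of Fdft1 reached 0.168. Mean Idi1 levels of the CT-26 and Colon 26 cultures were 39.2 and 25.4 CPM, and those of the tumors 81.0 and 75.9 CPM, so the models lay further apart in culture. For Insig1 the value was 0.50 (SE 0.23, adjusted p = 0.101) and for Hmgcs1 it was 0.25 (SE 0.25, adjusted p = 0.438). Neither Idi1 nor Fdft1 passed the fold minimum, so 0 of 7 genes were called, against 17.6% of all genes. By adjusted p alone 2 of 7 were called, against 51.0% of genes. DESeq2 likewise called 0, and 2 genes had an unadjusted edgeR p under 0.05. Ctsb gave 0.55 (SE 0.18, adjusted p = 0.0243) in the same contrast, in the direction of Fdft1.

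**Figure D2:**
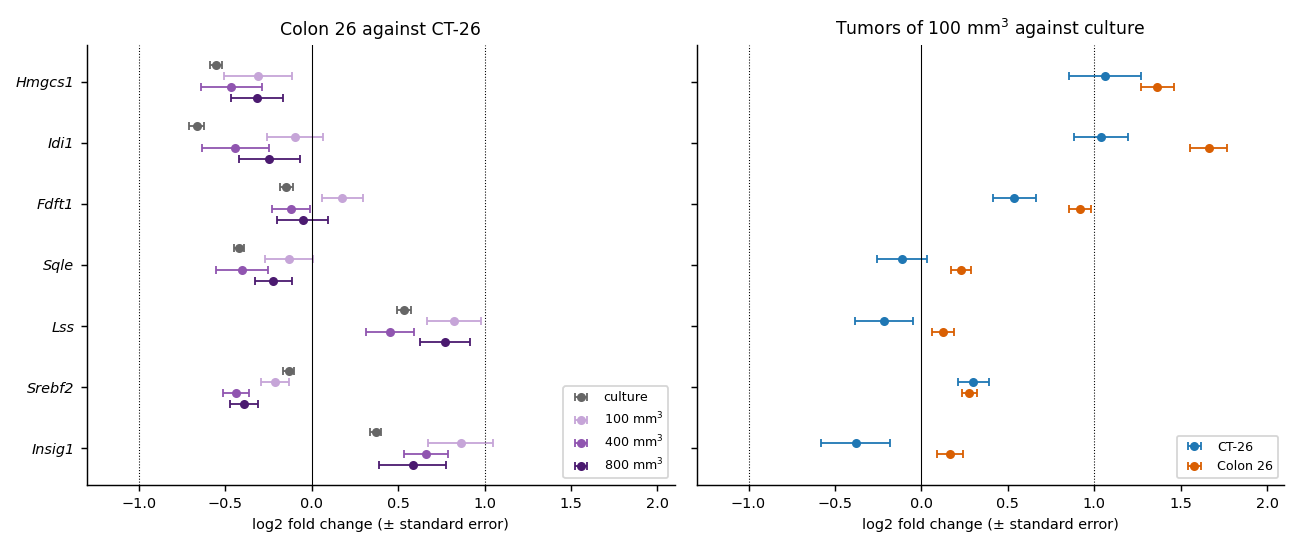
Log2 fold changes (points) with standard errors (bars) of the 7 genes from edgeR, Colon 26 against CT-26 in culture and at 3 tumor sizes on the left and tumors of 100 mm3 against culture in each model on the right; dotted lines mark a log2 fold change of 1 in either direction. Lss and Insig1 lay to the right of 0 in all 4 comparisons of the models and Srebf2 to the left, and Hmgcs1 and Idi1 alone reached the dotted line against culture.

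The second comparison set Colon 26 against CT-26 at each stage, the contrast by which the study looked for differences between its 2 models. These comparisons use the same cultures and 100 mm3 tumors as those above, so their values are not independent of them. In culture, 5 genes were lower in Colon 26 (Idi1, Hmgcs1, Sqle, Fdft1 and Srebf2) and 2 were higher (Lss and Insig1). Lss and Insig1 were also higher, and Srebf2 also lower, in Colon 26 tumors of every size.

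Among the cultures, Idi1 was lower in Colon 26 by a log2 fold change of -0.67 (SE 0.04, adjusted p = 8.26e-10) and Hmgcs1 by -0.56 (SE 0.03, adjusted p = 3.27e-10). The value was -0.42 (SE 0.03, adjusted p = 1.26e-09) for Sqle, -0.15 (SE 0.04, adjusted p = 0.00137) for Fdft1 and -0.13 (SE 0.03, adjusted p = 0.000684) for Srebf2. Lss was higher by 0.53 (SE 0.04, adjusted p = 2.66e-09) and Insig1 by 0.37 (SE 0.03, adjusted p = 1.12e-08). The labels do not say whether the cultures were independent, so these p-values may measure technical spread. Lss was thus the one enzyme of the set that was higher in Colon 26, and each of the 7 differences was 1.59-fold or less. All 7 passed the adjusted p, against 82.6% of all genes, and 6 of 7 did not overlap between the lines, against 79.1%. With no filter on low counts 5 of 7 passed, without Fdft1 (adjusted p = 0.156) and Srebf2 (0.154). With all 30 libraries in 1 fit 5 passed, without Fdft1 (0.28) and Insig1 (0.199). None passed both thresholds (0 of 7 by edgeR, with 7 at an unadjusted p under 0.05, and 0 by DESeq2), against 22.9% of genes. The median was -0.15 for the 7 genes and 0.01 over all genes.

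Lss, the cyclase, separated the models in tumors. At 100 mm3 it was at 28.6 to 49.5 CPM in CT-26 and 60.1 to 73.5 CPM in Colon 26 (log2 fold change 0.82, SE 0.16, adjusted p = 0.00222). At 400 mm3 the CT-26 tumors gave 50.01, 35.7, 53.5 and 56.7 CPM and the Colon 26 tumors 63.7, 75.6, 68.4 and 59.5 CPM (0.45, SE 0.14, adjusted p = 0.0276). At 800 mm3 they gave 26.8, 36.3, 44.0 and 41.7 CPM and 73.2, 62.4, 66.9 and 53.5 CPM (0.77, SE 0.14, adjusted p = 0.00134). Lss was the only one of the 7 whose groups did not overlap in culture and at all 3 sizes.

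Insig1, the brake on SREBP2, was at 58.9 to 119 CPM in CT-26 and 137 to 179 CPM in Colon 26 tumors of 100 mm3 (0.86, SE 0.19, adjusted p = 0.00477). Without CT-26 tumor replicate 3, its highest CT-26 library at that size, the value was 1.08 and it was called. At 400 mm3 the CT-26 tumors gave 108, 92.4, 104 and 130 CPM and the Colon 26 tumors 137, 192, 184 and 173 CPM (0.66, SE 0.13, adjusted p = 0.00263). At 800 mm3 the ranges overlapped, with 63.9, 119, 98.7 and 101 CPM in CT-26 and 196, 114, 144 and 126 CPM in Colon 26 (0.58, SE 0.19, adjusted p = 0.0281).

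Srebf2 was lower in Colon 26 tumors by -0.21 (SE 0.08, adjusted p = 0.0606, and up to 0.183 without 1 tumor) at 100 mm3, -0.44 (SE 0.08, adjusted p = 0.00163) at 400 mm3 and -0.39 (SE 0.08, adjusted p = 0.00224) at 800 mm3. At 400 mm3 the CT-26 tumors gave 312, 264, 310 and 285 CPM against 196, 225, 229 and 213 CPM in Colon 26, with no overlap. At 800 mm3 they gave 230, 257, 296 and 268 CPM against 223, 202, 192 and 193 CPM, again with no overlap.

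Hmgcs1, Idi1 and Sqle passed the adjusted p in tumors only at 400 mm3. There Hmgcs1 was at 170, 111, 181 and 218 CPM in CT-26 and 121, 135, 115 and 120 CPM in Colon 26 (log2 fold change -0.47, SE 0.18, adjusted p = 0.06). Idi1 was at 89.7, 53.8, 79.6 and 115 CPM and 64.5, 66.2, 57.4 and 59.8 CPM (-0.44, SE 0.20, adjusted p = 0.0974). Sqle was at 151, 103, 158 and 171 CPM and 103, 128, 106 and 103 CPM (-0.40, SE 0.15, adjusted p = 0.0567). The ranges overlapped for all 3, and CT-26 tumor replicate 2 was the lowest CT-26 tumor of that size in each. Without CT-26 tumor replicate 1, 3 or 4 or Colon 26 tumor replicate 3 or 4, none of the 3 passed, with adjusted p up to 0.138 for Hmgcs1, 0.229 for Idi1 and 0.134 for Sqle. At 100 and 800 mm3 these 3 genes had adjusted p of 0.226 and 0.1 for Hmgcs1, 0.643 and 0.266 for Idi1, and 0.472 and 0.105 for Sqle. The 0.1 of Hmgcs1 at 800 mm3 is rounded and lay just above the threshold. The log2 fold changes at 800 mm3 were also negative, at -0.32 for Hmgcs1, -0.25 for Idi1 and -0.22 for Sqle. Fdft1 had adjusted p of 0.255, 0.401 and 0.791 at the 3 sizes.

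By adjusted p alone, 3 of 7 genes differed at 100 mm3 (56.5% of all genes), 6 at 400 mm3 (52.2%) and 3 at 800 mm3 (59.4%). Groups did not overlap for 2 of 7 at 100 mm3 (47.4% of genes), 3 at 400 mm3 (43.2%) and 2 at 800 mm3 (48.0%). With the fold minimum, 0 of 7 were called at each size by edgeR and by DESeq2, against 13.2%, 14.3% and 14.1% of genes, while 3, 5 and 3 had an unadjusted p under 0.05. The medians of the 7 genes were -0.10, -0.40 and -0.22, beside 0.00, 0.03 and -0.01 over all genes.

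The third comparison took tumor size as growth, with tumors of 400 and 800 mm3 set against the group of 100 mm3. The sizes are separate tumors, and the 100 mm3 group of each model enters both of its contrasts. No member was called in any of the 4 contrasts by edgeR or by DESeq2. In CT-26 the log2 fold changes ran from 0.03 (Sqle) to 0.33 (Insig1) at 400 mm3 and from -0.18 (Sqle) to 0.15 (Insig1) at 800 mm3, and 0 had an unadjusted p under 0.05 at either size. All genes together gave 0.0% called at 400 mm3 and 0.0% at 800 mm3. In Colon 26 they ran from -0.31 (Idi1) to 0.10 (Insig1) at 400 mm3 (0.0131% of all genes called) and from -0.28 (Sqle) to -0.12 (Hmgcs1) at 800 mm3 (1.33% called). For 2 genes there was an unadjusted p under 0.05 at each Colon 26 size. These were Sqle (adjusted p = 0.291) and Idi1 (adjusted p = 0.307) at 400 mm3, and Srebf2 (adjusted p = 0.125) and Sqle (adjusted p = 0.149) at 800 mm3. The growth change did not pass the test of a difference between models for any of the 7 (0 by edgeR, 0 at an unadjusted p under 0.05 and 0 by DESeq2), with values from -0.29 for Insig1 (SE 0.30, adjusted p = 0.733) to -0.02 for Hmgcs1 (SE 0.27), against 0.0308% of genes called. Standard errors in CT-26 reached 0.25, so at this number of tumors a change of that size was not detectable. Much larger changes also went uncalled in CT-26, as for the neutrophil marker S100a9 at 400 mm3 (4.24, adjusted p = 0.109 by edgeR). By adjusted p alone, 0 of 15104 genes passed at 400 mm3 and 0 of 15298 at 800 mm3, so the 7 genes were not set apart from the rest.

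Tumors of the same size differed among themselves. The levels of the 7 genes were correlated over all tumors of a model, with its sizes pooled. Correlation within a size was not computed, so differences within and between sizes were not separated. The 21 pairs of genes, correlated over the 12 tumors of each model on the log2 CPM scale, had Pearson's r from 0.609 to 0.948 (median 0.835) in CT-26 and from 0.414 to 0.908 (median 0.744) in Colon 26. Spearman's rho ran from 0.580 to 0.944 in CT-26 and from 0.322 to 0.909 in Colon 26. The lowest r in Colon 26 was that of Idi1 with Insig1, and in CT-26 that of Sqle with Insig1. The points share libraries and their scaling, and the values are a description.

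CT-26 tumor replicate 1 of 800 mm3 was the lowest CT-26 tumor for Hmgcs1, Idi1, Fdft1 and Lss, at 110, 51.3, 52.8 and 26.8 CPM. Its mean over the 7 genes, in standard deviations from the mean of the 12 CT-26 tumors, was -1.61, and that of replicate 1 of 100 mm3 was -1.27. CT-26 tumor replicate 4 of 400 mm3 was the highest at 1.21. In Colon 26 the extremes were both at 800 mm3, replicate 4 at -1.68 and replicate 1 at 1.03.

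**Figure D3:**
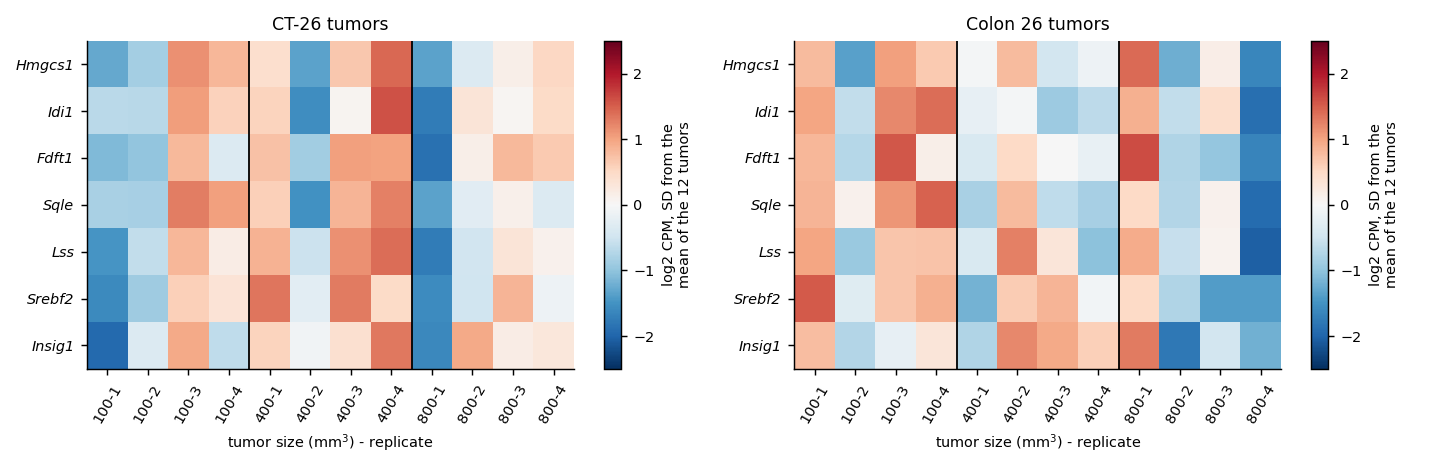
Log2 CPM of each of the 7 genes (rows) in the 12 tumors of each model (columns, nominal size in mm3 and replicate), as standard deviations from that gene's mean over the 12 tumors; red is above the mean and blue below. In 9 CT-26 and 6 Colon 26 tumors all 7 genes lay on 1 side of their means, as in CT-26 replicate 1 of 800 mm3 (mean -1.61) and Colon 26 replicate 4 of 800 mm3 (mean -1.68), and the other 3 and 6 columns hold both colors.

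Of 10947 other genes with a mean of at least 100 counts, those closest to this mean profile were Msmo1 (r = 0.972 over CT-26 and r = 0.944 over Colon 26 tumors), Fdps (0.887 and 0.934), Cyp51 (0.855 and 0.865), Nsdhl (0.872 and 0.846) and Stard4 (0.930 and 0.795). Likeness was the lower of both r, each over 12 tumors, and its median over all genes was -0.08. Spearman's rho of the 5 genes ran from 0.748 to 0.958. With r taken over all 30 libraries the list changed. Fdps, Msmo1 and Nsdhl then had ranks 1, 4 and 5, while Stard4 had rank 35 and Cyp51 rank 54. Without the 2 tumors of each model farthest from the median, r was 0.978 and 0.911 for Msmo1, 0.840 and 0.902 for Fdps, 0.804 and 0.754 for Cyp51, 0.767 and 0.755 for Nsdhl, and 0.883 and 0.616 for Stard4. Fdps makes the farnesyl unit that Fdft1 joins, Cyp51, Msmo1 and Nsdhl act on the sterols made after Lss, and Stard4 carries cholesterol between membranes. The summed leukocyte markers had an r with the profile of -0.447 in CT-26 and -0.157 in Colon 26, the T cell markers -0.400 and -0.650, the fibroblast and pericyte markers 0.368 and 0.266, the skeletal muscle markers 0.150 and 0.192, and the cycling markers -0.169 and -0.025. The macrophage markers had -0.41 and -0.04, the neutrophil markers -0.221 and -0.234, and the endothelial markers 0.252 and 0.269. The adipocyte markers had 0.05 and -0.108, and the colon epithelium markers 0.145 and 0.13. Their part in the shared profile was not tested.

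The other genes of the pathway were counted from lists. Of 15 other sterol synthesis genes, 1 was called higher in CT-26 tumors of 100 mm3 against culture, beside 22.2% of all genes, and 3 in Colon 26, beside 20.8%. By adjusted p alone, 11 were higher and 1 lower in CT-26, beside 40.8% and 34.7% of all genes, and 13 higher and 1 lower in Colon 26, beside 42.6% and 36.3%. The list's medians were 0.67 and 0.71, above those of all genes. Acat2, which starts the route from acetyl units, rose by 1.33 (SE 0.10) in CT-26 and 1.59 (SE 0.11) in Colon 26. Mvd, which makes the isoprenoid that Idi1 isomerizes, rose by 1.40 (SE 0.15) in Colon 26 and had 0.78 (SE 0.26) in CT-26.

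Hsd17b7, a reductase that acts while methyl groups are removed from the sterol ring, was at 19.5, 20.4 and 18.0 CPM in CT-26 cultures and 4.74, 4.79 and 5.34 CPM in Colon 26 cultures. It was the 1 gene of the list called lower in Colon 26 cultures (log2 fold change -1.99, SE 0.08, adjusted p = 5.8e-13), beside 12.3% of all genes. In tumors of 100 mm3 it was at 11.5, 12.3, 20.2 and 16.1 CPM in CT-26 and 9.01, 9.47, 12.04 and 12.12 CPM in Colon 26. The groups did not overlap in culture and overlapped in these tumors. Against culture it rose by 1.18 (SE 0.13, adjusted p = 4.25e-05) in Colon 26 and had -0.37 (SE 0.19, adjusted p = 0.115) in CT-26, and the interaction was 1.502 (SE 0.25, adjusted p = 0.000265). Host cells were present in the tumors and nearly absent from culture, and their part in these values was not tested. Between tumors of the same size, no gene of the list reached the fold minimum by edgeR. By adjusted p alone, 6 were higher and 7 lower in Colon 26 at 100 mm3, 4 and 7 at 400 mm3, and 3 and 7 at 800 mm3, while 56.5%, 52.2% and 59.4% of all genes passed in either direction.

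**Figure D4:**
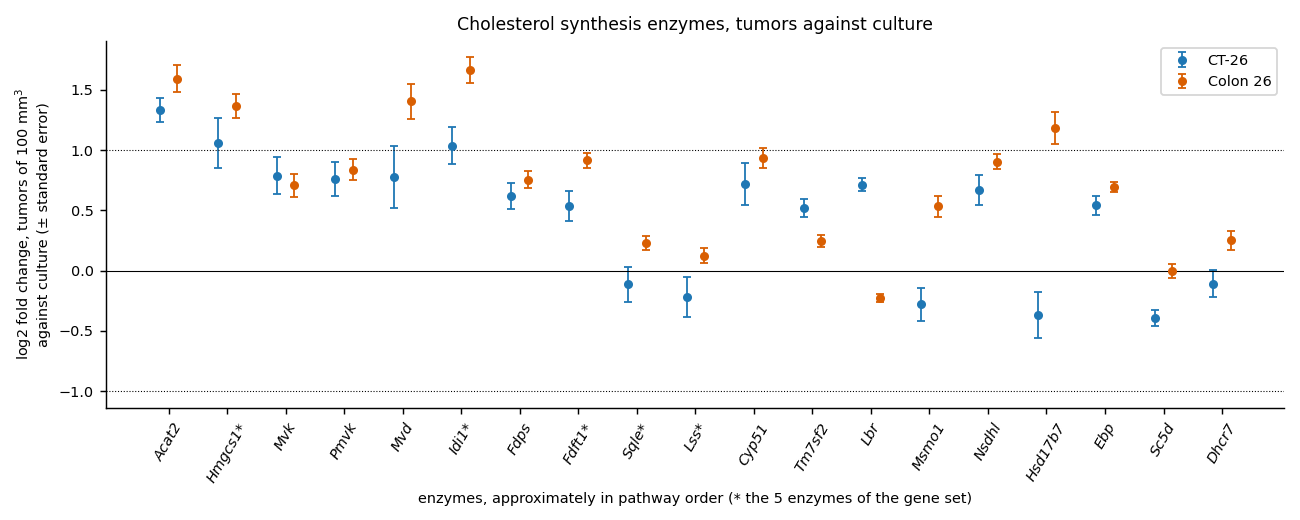
Log2 fold change with standard error of cholesterol synthesis enzymes, approximately in pathway order, in tumors of 100 mm3 against culture for CT-26 (blue) and Colon 26 (orange); asterisks mark the 5 enzymes of the gene set and dotted lines a log2 fold change of 1 in either direction. Acat2 lay highest in CT-26 (1.33), Sqle and Lss lay near 0 in both models, and Hsd17b7 lay above 0 in Colon 26 (1.18) and below it in CT-26 (-0.37).

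Among 8 genes that control SREBP, the protease gene Mbtps2 was called lower in CT-26 tumors of 100 mm3 against culture (-1.17, SE 0.06), beside 10.1% of all genes. Of 10 genes of sterol uptake and transport, Mylip, whose product sends lipoprotein receptors to degradation, was called lower in Colon 26 in culture (-3.78, SE 0.17) and in tumors of 100, 400 and 800 mm3 (-2.23, -2.47 and -2.06). Of all genes, 12.3% were called lower in Colon 26 in culture and 7.06%, 7.79% and 7.62% in tumors of these sizes. The list also held a gene, not named here, that was called higher in Colon 26 tumors of these sizes. Of all genes, 6.17%, 6.48% and 6.5% were called higher there. Mylip rose from culture to tumor by 1.11 (SE 0.26) in CT-26 and 2.71 (SE 0.21) in Colon 26. Vldlr, a lipoprotein receptor, was called lower in Colon 26 tumors at the 3 sizes (-1.21, -1.56 and -1.58) and lower in Colon 26 tumors than in culture (-1.68, SE 0.14). Npc1, which exports cholesterol from lysosomes, was called lower in CT-26 tumors than in culture (-1.26, SE 0.11), and Lipa, which releases cholesterol from esters in lysosomes, rose in Colon 26 (1.30, SE 0.10). Over the uptake list, 2 were called higher and 1 lower in CT-26 tumors against culture, beside 22.2% and 10.1% of all genes, and 3 higher and 1 lower in Colon 26, beside 20.8% and 6.11%.

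Of 9 genes of sterol efflux and storage, 5 were called higher in CT-26 tumors of 100 mm3 against culture, beside 22.2% of all genes, and 2 in Colon 26, beside 20.8%. Apoe, the apolipoprotein that carries cholesterol out of macrophages, rose by 5.26 (SE 0.32) in CT-26 and 6.93 (SE 0.30) in Colon 26, and the exporter Abcg1 rose by 6.20 (SE 0.70) in CT-26. Ch25h, a sterol hydroxylase of macrophages, held 0 to 3 counts in every culture and was at least 458-fold higher in CT-26 tumors and at least 471-fold higher in Colon 26 tumors, against a floor of 3 counts per library. Abcg1 (5.58, SE 0.15) and Nr1h3 (4.05, SE 0.15), the gene of a sterol receptor, were called higher in Colon 26 cultures than in CT-26 cultures, Apoe was called lower (-1.23, SE 0.13), and Cyp27a1, with 0 to 1 counts in the CT-26 cultures, was at least 42.2-fold higher in Colon 26 cultures and at least 24.3-fold higher in CT-26 tumors of 100 mm3. Between tumors of 800 mm3, Nr1h3 (1.70, SE 0.25) and Abcg1 (1.02, SE 0.20) were called higher in Colon 26, beside 6.5% of all genes. In culture, 10.6% of all genes were called higher and 12.3% lower in Colon 26. The macrophage markers summed to 58.2 to 67.6 CPM in CT-26 cultures and 3.49 to 4.44 CPM in Colon 26 cultures. Over the tumors of 100 mm3 they summed to 634 to 1040 CPM in CT-26 and 777 to 1005 CPM in Colon 26. At 800 mm3 the sums were 527 to 654 CPM in CT-26 and 662 to 930 CPM in Colon 26, with no overlap. Their part in the values of the efflux and storage genes was not tested. Of 11 fatty acid synthesis genes, Fads2 was called higher in Colon 26 cultures (1.24, SE 0.04), and the desaturase Scd1 was called lower in Colon 26 at 400 mm3 (-1.26, SE 0.16) and lower in Colon 26 tumors than in culture (-1.11, SE 0.07). The shares of all genes called in these 3 comparisons and directions were 10.6%, 7.79% and 6.11%.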

How the data were processed

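PolyA RNA of 6 cultures and 24 tumors was sequenced. Per the paper's methods, the authors counted reads on Ensembl genes in Array Studio and tested them in DESeq2, which the submitters' processing notes give as version 1.24.0. The aligner, the genome build and the handling of strand are not given in the sources used here. They deposited estimated counts per gene and library, not normalized, of which 22.98% of non-zero values were not whole, and FPKM. Of 53431 gene IDs, 52207 matched a symbol. No column was left unmapped (0).

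Counts were rounded and tested with edgeR 4.0.16 (limma 3.58.1, R 4.3.3), with TMM scaling, the default low-count filter and Benjamini-Hochberg adjustment over all genes tested. Each fit held the libraries of its comparison. As in the study, calls needed adjusted p-values not above 0.1 and a log2 fold change of 1 or more in size. CPM was scaled by TMM over 30 libraries, and FPKM was used as deposited. Likeness and profiles used log2 CPM with a prior count of 2. The fits were tested on simulated counts first. Groups came from the labels, which do not say whether cultures were independent, so p-values may measure technical spread.

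The 7 genes were given by name. From each other list up to 3 genes called in each direction with the largest change were named, along with the 5 genes most like the 7. The members and lists were chosen with earlier results of these data known. The results of some genes are not reported here. Alternatives were RLE or library-size scaling, 2 other filters, DESeq2 1.42.0, all libraries in 1 fit, other thresholds and leaving out each replicate. Promoter motifs were searched in RefSeq windows (GRCm38.p6).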

Additional observations from a re-analysis of the deposited data

Results flagged for a closer look

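Single tumors, 2 in all, stood apart from their group by Dixon's criterion at the 95% level, among 42 groups of 4 tumors tested. Chance flags about 1 in 20 such groups. Sqle was highest in Colon 26 tumor replicate 2 of 400 mm3, at 128 CPM, while the other 3 tumors were at 103 to 106 CPM. Lss was lowest in Colon 26 tumor replicate 2 of 100 mm3, at 60.1 CPM, while the other 3 were at 71.2 to 73.5 CPM.

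The difference between tumors of 100 mm3 and culture differed between the models for Idi1, by 0.58 on the log2 scale (higher in Colon 26, adjusted p = 0.0336 by edgeR's interaction test), and for Fdft1, by 0.33 (adjusted p = 0.0876). Both values were below the fold minimum.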

How the results depend on the processing

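No paired analysis was possible because the labels carry no replicate numbers that link samples of different groups. With no minimum fold change, the number of the 7 genes called was 7 between the cultures, 3, 6 and 3 between tumors of 100, 400 and 800 mm3, 4 in CT-26 and 7 in Colon 26 tumors against culture, and 2 for the interaction with culture. Leaving out 1 replicate gave 0 to 1 called between tumors of 100 mm3 (1 without CT-26 tumor replicate 3) and 0 to 2 in CT-26 tumors against culture, with 0 without tumor replicate 3 or 4 and 1 without culture replicate 2 (Idi1 0.996). These losses come from log2 fold changes just under 1. RLE and library-size scaling, the other filters, DESeq2, 1 fit of all libraries and an adjusted p threshold of 0.05 changed no count of the 7 genes called with the fold minimum. By an adjusted p under 0.1 alone, the scalings, filters, DESeq2 and the 1 fit gave 5 to 7 between cultures, 2 to 3, 3 to 6 and 3 between tumors of the 3 sizes, 4 to 5 in CT-26 and 4 to 7 in Colon 26 tumors against culture, and 1 to 4 for the interaction, and leaving out 1 library gave 7 between cultures, 2 to 4, 3 to 7 and 3 to 6 between tumors of the 3 sizes, 4 to 6 in CT-26 and 5 to 7 in Colon 26 tumors against culture, and 1 to 5 for the interaction. Library-size scaling gave an adjusted p of 0.11 for Hmgcs1, 0.174 for Idi1 and 0.103 for Sqle at 400 mm3.

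The values that changed sign were near 0 and not called. With library-size scaling they were 0.015 for Fdft1 between tumors of 800 mm3, -0.0107 for Sqle and -0.0169 for Srebf2 in CT-26 tumors of 400 and 800 against 100 mm3, and 0.0184 for Hmgcs1 in the growth interaction. With 1 replicate left out, the log2 fold change between models ran from -0.192 to 0.0459 for Idi1 at 100 mm3 and from -0.1761 to 0.019 for Fdft1 at 800 mm3. In CT-26 tumors of 400 against 100 mm3 it ran from -0.1341 to 0.228 for Idi1, -0.0383 to 0.2747 for Hmgcs1 and -0.06 to 0.1743 for Sqle. In those of 800 against 100 mm3 it ran from -0.1841 to 0.0713 for Lss, -0.1883 to 0.042 for Idi1, -0.2322 to 0.0437 for Hmgcs1 and -0.0509 to 0.0577 for Srebf2. In the growth interaction it ran from -0.2061 to 0.0577 for Lss and -0.1708 to 0.1133 for Hmgcs1.

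Counts over all genes moved by more than 1.5 times with a filter of 10 counts in every library, to 1996 of 3283 between the cultures, 1356 of 2038 and 1433 of 2176 between tumors of 100 and 400 mm3, 2527 of 4952 and 1818 of 4296 against culture, and 1487 of 2904 for the interaction. With no filter 3469 in place of 2192 were called between tumors of 800 mm3. In the growth contrasts (CT-26, then Colon 26, each at 400 and 800 mm3) edgeR called 0, 0, 2 and 205, DESeq2 150, 39, 42 and 309, and 1 fit of all libraries 379, 92, 25 and 100. The strict filter gave 64 in CT-26 at 400 mm3 and 5 and 90 in Colon 26 at 400 and 800 mm3, and no filter gave 6 in each model at 400 mm3. Leaving out 1 tumor gave 0 to 335, 0 to 2, 0 to 391 and 150 to 290. The growth interaction gave 5, 114 and 39, with 0 to 3 under the filters, library-size scaling or an adjusted p of 0.05, and 2 to 128 with 1 tumor left out. With no minimum fold 11842, 8710, 7963, 9213, 11601, 12581, 1028, 8421 and 13 were called between cultures, between tumors of the 3 sizes, against culture in both models, in Colon 26 at 800 mm3 and for both interactions. The cause was not tested.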
